A study of Mus musculus domesticus and Mus musculus molossinus with 8 samples.

Results

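The H2 genes are the mouse genes of the major histocompatibility complex, and they were followed here through all 8 RNA sequencing libraries of the series. Members were the rows of both deposited gene tables whose symbol begins with H2-, which gave 42 of 23284 genes. By symbol they comprised 3 classical class I genes (H2-K1, H2-K2 and H2-D1), 10 class II genes, 8 Q genes, 7 T genes (H2-Bl counted among them), 12 M genes and 2 genes of other function, H2-Ke2 and H2-Ke6. Of the 42, 33 reached 1 FPKM (a fragment count scaled to transcript length and library size) in at least 1 library.

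Polyadenylated RNA came from thymus and liver of 4 mice aged 8 weeks, with both organs taken from each mouse. Of the C57BL/6 (B6) mice, the strain on which the mouse reference genome is built, 1 was left untreated and the other was injected in the peritoneum with MegaFasL (1.5 µg), a multimeric Fas ligand. The same held for MSM/Ms (MSM), an inbred strain derived from Japanese wild mice. Every strain, tissue and treatment thus met in 1 library from 1 mouse, and p-values below measure how far a strain or tissue difference varied between mice of unlike treatment or strain, not the spread among mice treated alike. The untreated and the injected mice were normalized in separate tables, and MSM fragments were aligned to the B6 reference.

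MHC class I proteins pair with beta-2 microglobulin and show peptides from inside the cell to CD8 T cells, and nearly all nucleated cells carry them. Class II proteins are pairs of an alpha and a beta chain that show peptides taken up from outside to CD4 T cells, mainly on dendritic cells, macrophages, B cells and thymic epithelium. The Q, T and M genes encode nonclassical class I-like proteins with narrower expression, such as the Qa-2 and Qa-1 antigens, the thymus leukaemia (TL) antigen and the secreted liver protein Q10. The region is among the most polymorphic of the genome, and B6 mice carry the b haplotype, which is known for lacking the E alpha chain and TL antigen on thymocytes.

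All members lay on chromosome 17 within 3.54 Mb (mm10, chr17:33938909-37483529, from 1). Class I members resemble each other closely, which bears on how aligned fragments are shared among them. The first 90 bases of exon 2, which encodes the first domain of the peptide groove, are shown for the class I members whose levels are described in most detail. They are the coding strand of GENCODE M21 transcripts (mm10, the B6 genome), and capitals mark bases unlike those of H2-K1 at the same position.
H2-K1 (chr17:33999914-34000003, minus strand): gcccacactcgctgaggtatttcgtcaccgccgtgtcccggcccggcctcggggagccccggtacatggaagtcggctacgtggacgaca
H2-D1 (chr17:35263379-35263468, plus strand): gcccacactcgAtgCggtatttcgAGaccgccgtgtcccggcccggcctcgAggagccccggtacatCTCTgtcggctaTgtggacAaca
H2-Q10 (chr17:35470376-35470465, plus strand): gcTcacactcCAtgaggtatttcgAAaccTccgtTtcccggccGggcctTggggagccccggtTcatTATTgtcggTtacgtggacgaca
H2-Q6 (chr17:35425108-35425197, plus strand): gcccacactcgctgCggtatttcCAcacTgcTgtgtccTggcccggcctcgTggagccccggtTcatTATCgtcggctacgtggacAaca
H2-Q7 (chr17:35439452-35439541, plus strand): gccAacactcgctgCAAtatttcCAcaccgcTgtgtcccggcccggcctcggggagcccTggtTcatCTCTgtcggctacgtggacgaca
H2-T23 (chr17:36032333-36032422, minus strand): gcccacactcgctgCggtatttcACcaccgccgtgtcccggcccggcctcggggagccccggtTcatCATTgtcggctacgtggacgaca

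Over this stretch H2-T23 differed from H2-K1 at 8 bases, H2-D1 at 11, H2-Q6 and H2-Q7 at 13 each, and H2-Q10 at 15. Over the whole coding sequence H2-K1 was identical to H2-D1 at 91.4% of aligned bases, to H2-Q4 at 89.7%, to H2-Q10 at 88.0%, to H2-T23 at 82.8%, to H2-T3 at 76.6% and to H2-M3 at 73.2%. The closest pairs were H2-T10 with H2-T22 (96.9%), H2-DMb1 with H2-DMb2 (95.9%) and H2-Q6 with H2-Q7 (95.4%). Of the 50-base stretches of a reference transcript, the share that also occurred in another annotated gene was 8.79% to 14.3% for the classical class I genes and 8.03% to 40.2% for the 6 Q genes with a transcript of the same name. In the T group it reached 43.0% for H2-T10 and 44.7% for H2-T22. It was 0% for H2-Aa, H2-Ab1, H2-Ea-ps, H2-Eb1, H2-Eb2 and H2-Bl, and 1.28% for H2-T3. Some rows shared 1 locus in the tables, H2-Q7 with H2-Q9, H2-T9 with H2-T22, and H2-T23 with H2-T24, so their values are also given as sums.

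Depth was read back from the steps between FPKM values as an estimate. A value of 1 FPKM on 1 kb of transcript stood for 2.81 to 3.43 fragments in the thymus libraries and for 1.56 to 1.80 in the liver libraries. H2 genes together made 0.141% to 0.369% of a library's FPKM sum, with 0.290% to 0.369% in the 4 B6 libraries and 0.141% to 0.179% in the 4 MSM libraries. The libraries kept to their tissue labels: the summed level of 10 thymocyte markers was 1236 to 2116 FPKM in thymus and 4.67 to 35.6 FPKM in liver. The 35.6 FPKM belonged to the untreated B6 liver, and the other livers were at 4.67 to 5.88 FPKM. The untreated MSM thymus stood apart, since albumin (Alb) was at 1773 FPKM there against 24.1 to 139 FPKM in the other thymi, and 6 airway epithelium markers summed to 1147 FPKM against 1.20 to 7.01 FPKM. Thymus differences of called H2 genes are given with and without it. A fit that leaves out 1 library leaves 1 mouse in a strain and has no treatment term. Its difference is therefore given without a p-value.

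**Figure D1:**
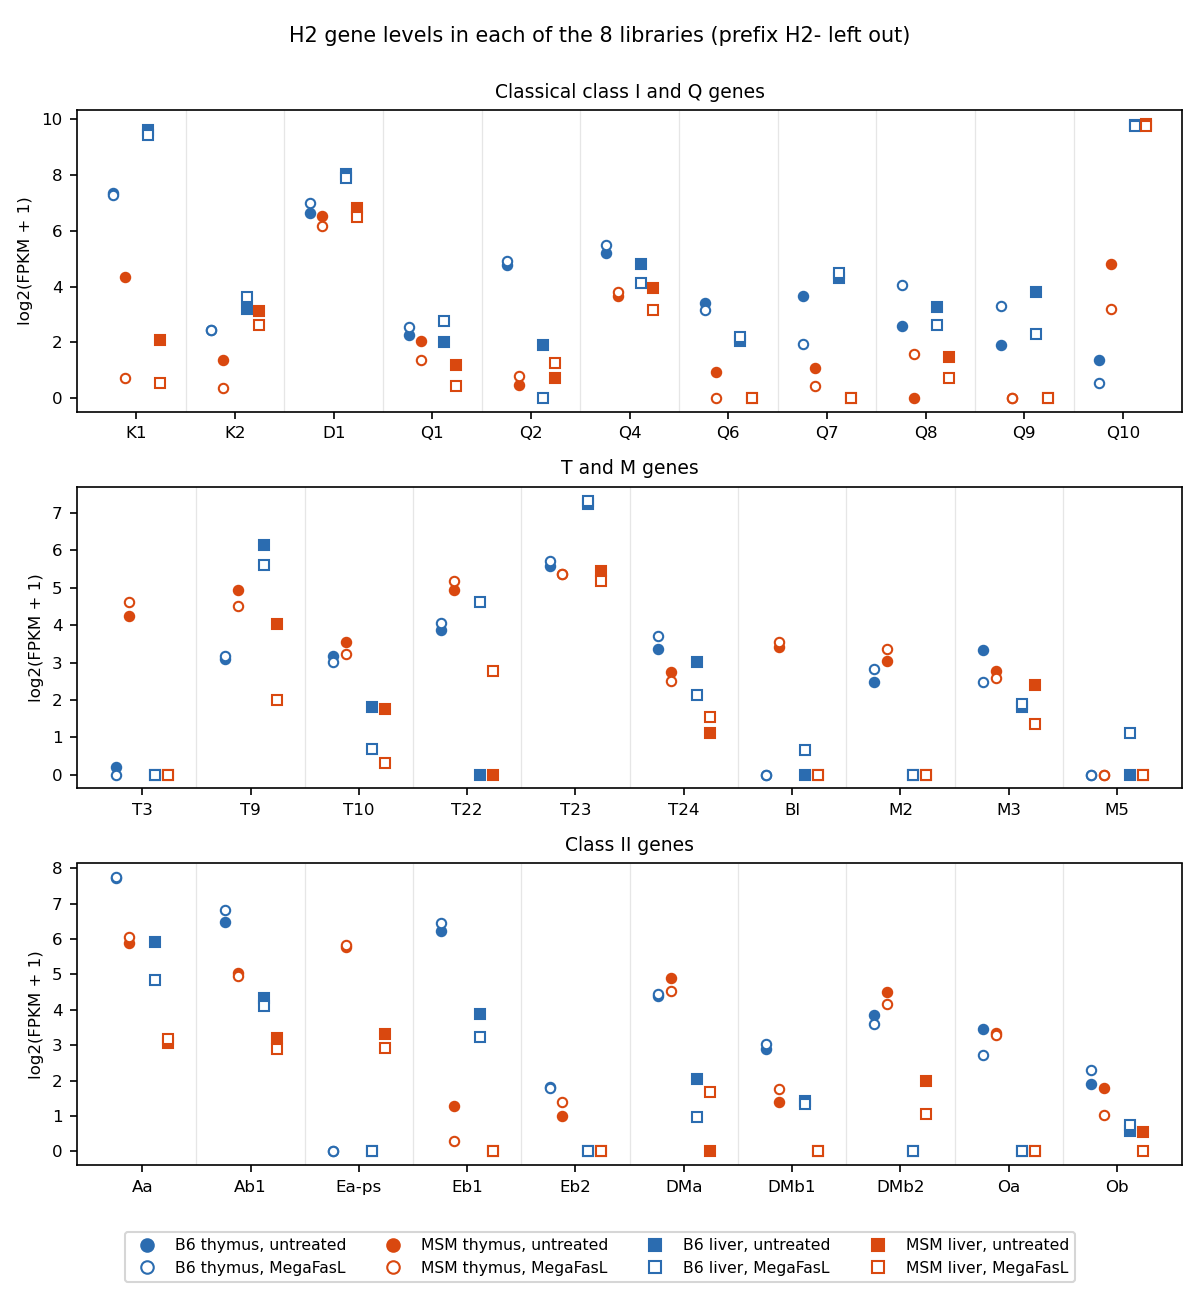
Level of each H2 gene that reached 1 FPKM in a library, apart from H2-Ke2 and H2-Ke6, as log2(FPKM + 1) in each of the 8 libraries (circles, thymus; squares, liver; blue, B6; orange, MSM; filled, untreated; open, injected with MegaFasL). H2-K1 and H2-Eb1 lie lower in both MSM symbols of a tissue than in both B6 symbols, H2-Ea-ps, H2-T3 and H2-Bl are present in MSM thymus and at or near 0 in B6 thymus, and H2-Q10 lies above 9 in all 4 livers.

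The strain comparison asks how H2 expression differs between the classical and the wild-derived strain. In thymus, 32 members reached the level tested (a mean of 1 FPKM over the 4 libraries). Of these, 4 were higher in MSM and 7 lower (limma, adjusted p under 0.05), where 0.379% of the 11610 genes tested were called higher and 0.594% lower. In liver 25 members were tested, and 1 was higher and 4 lower in MSM, against 0.51% and 0.957% of 10971 genes. The median difference (MSM minus B6) of log2(FPKM + 1) over the tested members was -0.56 in thymus and -1.17 in liver, beside 0.03 and 0.01 over all genes tested. In thymus 20 of the 32 members had an unadjusted p under 0.05 by limma, beside 1505 of 11610 genes. In liver 16 of the 25 had one, beside 1774 of 10971. Leaving out either B6 thymus library, or any liver library, ended most or all calls of members and of genes at large alike. Fits without 1 library are among the alternative analyses counted below, so losses in them do not mark a member. They leave 1 mouse in a strain. Their median differences over members ran from -0.62 to -0.35 in thymus and from -1.39 to -1.15 in liver.

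Among the classical class I genes, H2-K1 (chr17:33996012-34000333, minus strand), which encodes the K molecule, was high in both B6 mice and low in both MSM mice. In liver it stood at 791 FPKM in the untreated and 695 FPKM in the injected B6 mouse, and at 3.20 and 0.440 FPKM in the MSM mice. The strains did not overlap there. By the estimated depth these values rested on about 1836, 1771, 7.83 and 0.98 fragments. The difference of log2(FPKM + 1) in liver was -8.24 ± 0.38 (SE, limma adjusted p = 0.00386), and the untreated B6 liver was 247-fold above the untreated MSM liver. The liver call held in 10 of 14 alternative analyses, and the others left out 1 liver library each. In thymus H2-K1 was at 163 and 156 FPKM in the B6 mice and at 19.1 FPKM in the untreated and 0.667 FPKM in the injected MSM mouse. Again the strains did not overlap, but the MSM thymi differed from each other by more than any other member did between untreated and injected MSM thymus. The thymus difference of -4.79 ± 0.74 was not called (adjusted p = 0.0532). Without the untreated MSM thymus it was -6.59, and without the injected MSM thymus -3.00. How many H2-K1 fragments of MSM failed to align to the B6 reference was not tested.

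H2-D1 (chr17:35263094-35267497, plus strand), which encodes the D molecule, was found in both strains at a high level. In thymus it stood at 99.6 and 127 FPKM in B6 and at 91.2 and 70.5 FPKM in MSM, a difference that was not called (-0.48 ± 0.27, adjusted p = 0.521). In liver it stood at 259.9 and 237 FPKM in B6 and at 111 and 90.4 FPKM in MSM. The livers did not overlap, and the untreated and injected B6 livers were 2.33-fold and 2.63-fold above their MSM counterparts, but the difference was not called (-1.30 ± 0.19, adjusted p = 0.0633). H2-K2, annotated as a transcribed pseudogene beside H2-K1, was low throughout, with 1.58 and 0.286 FPKM in MSM thymus against 4.40 and 4.49 FPKM in B6 thymus (-1.58 ± 0.43, adjusted p = 0.212). H2-K1 made 31.4% to 36.3% of the summed FPKM of the classical class I, Q and T genes in the 4 B6 libraries. In the MSM libraries it made 6.37% in untreated thymus and at most 0.288% in the other 3. The share of H2-D1 in that sum was 22.2% and 25.6% in B6 thymus and 30.4% and 29.1% in MSM thymus.

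Class II genes were called in both directions. H2-Ea-ps (chr17:34342212-34344645, minus strand) is the E alpha chain gene, annotated as a polymorphic pseudogene. It was listed at 0 in all 4 B6 libraries and stood at 53.7 and 55.8 FPKM in MSM thymus and at 8.95 and 6.57 FPKM in MSM liver. These values rested on about 126, 145, 12.9 and 8.57 fragments. The difference was 5.80 ± 0.25 in thymus (limma adjusted p = 0.000362), a call that held in 14 of 14 alternative analyses. In liver it was 3.12 ± 0.39 (limma adjusted p = 0.0455), and the call was lost in 7 of 13. Of those 7, 4 left out 1 liver library. Without the untreated MSM thymus the thymus difference was 5.83.

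H2-Eb1 (chr17:34305867-34316674, plus strand), the beta chain that pairs with E alpha, showed the reverse. In thymus it was at 74.3 and 87.1 FPKM in B6 and at 1.45 and 0.219 FPKM in MSM (-5.56 ± 0.34, adjusted p = 0.00144, and -6.06 without the untreated MSM thymus). In liver it was at 13.7 and 8.33 FPKM in B6 and listed at 0 in both MSM livers (-3.55 ± 0.39, adjusted p = 0.0366). So the B6 libraries held the beta chain transcript without the alpha chain, and the MSM libraries the alpha chain with little of the beta chain row. The H2-Eb1 call was lost in 2 of 14 alternative analyses in thymus and 8 of 14 in liver. Of those 8, 4 left out 1 liver library. Whether MSM fragments of H2-Eb1 were lost in alignment to the B6 reference was not tested.

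The A alpha and A beta chains, H2-Aa (chr17:34282751-34287771, minus strand) and H2-Ab1 (chr17:34263227-34269418, plus strand), were lower in MSM thymus. H2-Aa stood at 212 and 214 FPKM in B6 thymus and at 57.6 and 65.9 FPKM in MSM thymus (-1.77 ± 0.24, adjusted p = 0.0351). H2-Ab1 stood at 88.4 and 113 FPKM in B6 and at 32.2 and 30.1 FPKM in MSM (-1.65 ± 0.24, adjusted p = 0.0432). Without the untreated MSM thymus the differences were -1.68 for H2-Aa and -1.70 for H2-Ab1. The H2-Aa call was lost in 5 and the H2-Ab1 call in 7 of 14 alternative analyses. In liver H2-Aa was at 59.0 and 27.6 FPKM in B6 and 7.33 and 8.07 FPKM in MSM, and H2-Ab1 at 19.0 and 16.3 FPKM in B6 and 8.16 and 6.42 FPKM in MSM. Neither gene overlapped between strains in liver and neither was called there (adjusted p = 0.0762 and 0.140).

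None of the other class II genes was called in thymus. H2-DMa, 1 chain of the DM molecule that exchanges peptides on class II, was at 20.05 and 21.005 FPKM in B6 thymus and 28.8 and 22.2 FPKM in MSM thymus. The nearly identical DM beta genes lay on opposite sides: H2-DMb1 was at 6.43 and 7.13 FPKM in B6 and 1.64 and 2.37 FPKM in MSM thymus, and H2-DMb2 at 13.4 and 11.2 FPKM in B6 and 21.8 and 17.04 FPKM in MSM thymus. Neither was called (adjusted p = 0.134 and 0.346). Their sum was 19.9 and 18.3 FPKM in B6 thymus and 23.5 and 19.4 FPKM in MSM thymus. H2-Oa and H2-Ob, the chains of a molecule that restrains DM, were at 5.60 to 9.93 and at 1.04 to 3.96 FPKM in thymus, with strains overlapping for H2-Oa and not for H2-Ob, and neither was called. H2-Eb2, a second E beta-like gene, was at 2.56 and 2.43 FPKM in B6 and at 1.00 and 1.61 FPKM in MSM thymus (adjusted p = 0.596).

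Class II genes mark antigen-presenting cells, and in whole organs fewer such cells and less RNA per cell cannot be told apart. In liver the summed level of 9 macrophage and Kupffer cell markers was 337 and 167 FPKM in B6 against 67.2 and 46.5 FPKM in MSM. All 9 had a negative fitted difference (median -1.83), and 2 were called, Lyz2 (-2.88 ± 0.26, adjusted p = 0.0214) and Csf1r (-2.38 ± 0.28, adjusted p = 0.0405). In thymus the same list summed to 123 and 97.6 FPKM in B6 and 80.8 and 55.7 FPKM in MSM, with 0 of 7 tested called and 2 at an unadjusted p under 0.05. The 8 dendritic cell markers summed to 16.8 and 23.9 FPKM in B6 thymus and to 17.4 and 14.8 FPKM in MSM thymus, with 0 of 7 called by limma and 0 at an unadjusted p under 0.05. The 7 B cell markers summed to 21.03 and 15.1 FPKM in B6 thymus and to 45.1 and 3.96 FPKM in MSM thymus, and the 9 thymic epithelium markers to 483 and 564 FPKM and to 350.5 and 518 FPKM. The part of these cells in the class II differences was not tested.

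Among the Q genes, 4 were lower and 1 higher in MSM thymus, and 1 was lower in MSM liver. H2-Q2 stood at 26.2 and 29.4 FPKM in B6 thymus and at 0.395 and 0.715 FPKM in MSM thymus (-4.22 ± 0.26, adjusted p = 0.00152). H2-Q4 was at 35.9 and 44.5 FPKM in B6 and 11.8 and 13.1 FPKM in MSM thymus (-1.61 ± 0.22, adjusted p = 0.0399). The genes H2-Q6 to H2-Q9 encode or resemble the Qa-2 antigen. H2-Q6 was at 9.68 and 8.00 FPKM in B6 thymus, and at 0.910 FPKM and listed at 0 in MSM thymus (-2.83 ± 0.37, adjusted p = 0.0299), and H2-Q8 was also called lower (-2.54 ± 0.32, adjusted p = 0.0263). Without the untreated MSM thymus the differences were -1.76 for H2-Q8, -1.54 for H2-Q4, -4.07 for H2-Q2 and -3.29 for H2-Q6. The call was lost in 10 of 14 alternative analyses for H2-Q8, 8 of 14 for H2-Q4, 8 of 13 for H2-Q6 and 2 of 14 for H2-Q2. H2-Q7 in liver stood at 18.8 and 21.2 FPKM in B6 and was listed at 0 in both MSM livers (-4.39 ± 0.33, adjusted p = 0.0141). Its call held in 9 of 13 alternative analyses, and the others left out 1 liver library each.

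Since fragments can move between these near copies, their sum is less exposed to that split. The sum does not recover MSM fragments that failed to align to the B6 reference, and how many failed was not tested. H2-Q6 to H2-Q9 summed to 29.1 and 35.3 FPKM in B6 thymus, 2.05 and 2.31 FPKM in MSM thymus, 43.6 and 33.8 FPKM in B6 liver and 1.77 and 0.648 FPKM in MSM liver. Strains did not overlap in either tissue. The summed H2-Q7 and H2-Q9 row was lower in MSM thymus (-3.04 ± 0.30, adjusted p = 0.0108) and in MSM liver (-4.87 ± 0.32, adjusted p = 0.00862), a calculation added after the values were seen.

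H2-Q10 (chr17:35470089-35474563, plus strand) was the H2 row with the highest FPKM in all 4 livers. It stood at 882 and 875 FPKM in B6 and at 911 and 868 FPKM in MSM liver (0.02 ± 0.17, adjusted p = 0.971), which made 39.2% and 41.4% of the classical class I, Q and T sum in B6 and 81.8% and 85.0% in MSM. In thymus it was at 1.60 and 0.467 FPKM in B6, 27.3 FPKM in the untreated MSM and 8.08 FPKM in the injected MSM mouse (3.04 ± 0.32, adjusted p = 0.0144). Hepatocyte transcripts were also higher in MSM thymus, by far the most in the untreated mouse. The 8 hepatocyte markers summed to 39.4 and 71.2 FPKM in B6 thymus and to 2850 and 187 FPKM in MSM thymus, and all 8 had a positive fitted difference. In B6 thymus this sum was higher and H2-Q10 lower in the injected mouse. In the injected pair Cps1 (2.57 FPKM in B6, 2.85 in MSM) and Tat (1.36 and 1.33 FPKM) were near equal, while the other markers were higher in MSM. In the untreated MSM mouse the thymus level of H2-Q10 was 3.00% of its liver level, beside 2.38% for Alb, 2.79% for Apoa1 and 5.11% for Ttr. In the injected MSM mouse it was 0.931%, beside 0.162% for Alb, 0.135% for Apoa1 and 0.0948% for Ttr. Without the untreated MSM thymus the difference was 2.22, and the call was lost in 8 of 14 alternative analyses. The part of liver RNA in it was not tested.

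Of the 7 T genes, 2 were called higher in MSM thymus, and 1 of 5 tested was called lower in MSM liver. H2-T3 (chr17:36185571-36190151, minus strand), which encodes TL antigen, was at 0.147 FPKM and listed at 0 in B6 thymus and at 17.9 and 23.5 FPKM in MSM thymus (4.33 ± 0.32, adjusted p = 0.00305). About 1.06 fragment in B6 stood against 106 and 154 in MSM. It was listed at 0 in every liver. H2-Bl (chr17:36080189-36084249, minus strand), a class I-like gene named for the blastocyst and annotated as a polymorphic pseudogene, was listed at 0 in B6 thymus and stood at 9.57 and 10.7 FPKM in MSM thymus (3.47 ± 0.36, adjusted p = 0.0137). Without the untreated MSM thymus the differences were 4.52 for H2-T3 and 3.55 for H2-Bl. The call was lost in 2 of 14 alternative analyses for H2-T3 and 4 of 14 for H2-Bl.

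H2-T23, which encodes Qa-1, the ligand of inhibitory receptors on natural killer cells, was not called in thymus, with 46.6 and 51.3 FPKM in B6 and 40.0 FPKM in each MSM mouse (-0.28 ± 0.22, adjusted p = 0.648). In liver it was at 151 and 160.0 FPKM in B6 and at 42.5 and 35.4 FPKM in MSM (-1.98 ± 0.21, adjusted p = 0.0344), a 3.56-fold and 4.52-fold gap. That call was lost in 5 of 13 alternative analyses, 4 of which left out 1 liver library. The summed H2-T23 and H2-T24 row, at chr17:35994504-36038174, gave -1.97 ± 0.21 in liver (adjusted p = 0.0324).

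H2-T9 was the 1 member whose strain difference itself differed between the tissues (liver less thymus -4.47 ± 0.41, adjusted p = 0.0315), where 0.365% of 12880 genes were called in either direction. It was at 7.56 and 8.03 FPKM in B6 and 29.8 and 22.02 FPKM in MSM thymus, and at 69.9 and 48.1 FPKM in B6 and 15.3 and 2.97 FPKM in MSM liver. Neither tissue alone was called (adjusted p = 0.0534 and 0.0594). H2-T22, a ligand of some gamma-delta T cells that shares its locus (chr17:36038409-36042702), was at 13.7 and 15.6 FPKM in B6 and 29.9 and 35.3 FPKM in MSM thymus. In liver it was listed at 0 in both untreated mice and stood at 23.8 FPKM in the injected B6 and 5.84 FPKM in the injected MSM mouse. Summed, H2-T9 and H2-T22 gave 21.3 and 23.7 FPKM in B6 and 59.6 and 57.4 FPKM in MSM thymus, and 69.9 and 71.9 FPKM in B6 and 15.3 and 8.81 FPKM in MSM liver. The sum kept the opposite directions (interaction -3.85 ± 0.37, adjusted p = 0.0334), with liver called on its own (-2.51 ± 0.28, adjusted p = 0.0365) and thymus not (1.34 ± 0.22, adjusted p = 0.0671).

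All 7 T genes had a negative fitted interaction (median -2.03, against -0.04 over all genes tested), of which only H2-T9 was called. The 7 are not separate observations, since H2-T9 shares its locus with H2-T22 and H2-T23 with H2-T24. For H2-T3 (adjusted p = 0.0556) and H2-Bl (adjusted p = 0.0847) the livers were listed at 0, apart from 0.58 FPKM of H2-Bl in the injected B6 liver. H2-T9 passed in 2 of 13 alternative analyses, which include fits without 1 mouse that leave 1 mouse in a strain. H2-Q2 differed the other way (4.27 ± 0.65, adjusted p = 0.0961), since it was high in B6 thymus alone and at most 2.72 FPKM in the livers. H2-T10, 96.9% identical to H2-T22, was at 7.15 to 10.8 FPKM in thymus and at most 2.49 FPKM in liver, and was slightly higher in both MSM thymi without being called.

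**Figure D2:**
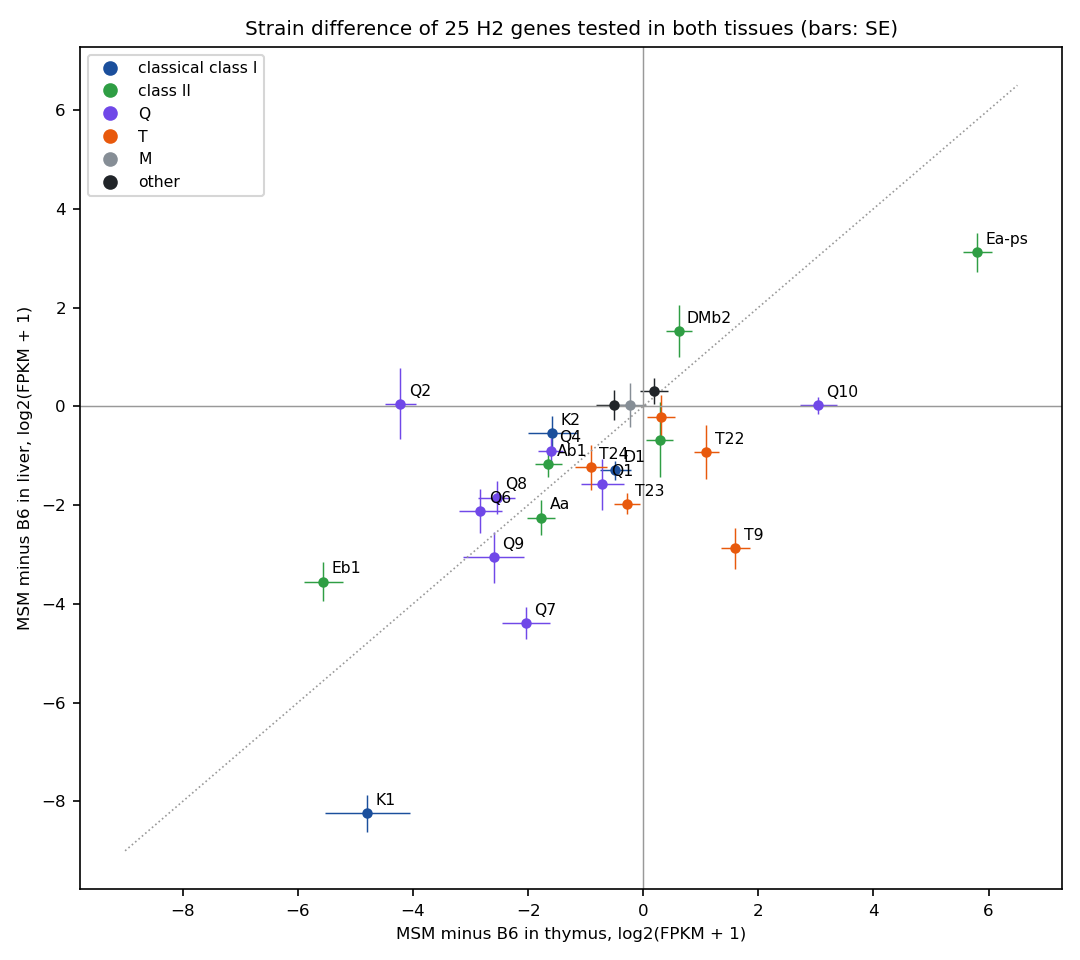
Strain difference (MSM minus B6) of log2(FPKM + 1) in thymus (x axis) and liver (y axis) for the 25 members tested in both tissues, with SE from limma as bars, colours for the gene groups and the dotted line marking equal differences. H2-K1 and H2-Eb1 lie low in both tissues, H2-Ea-ps high in both, and H2-T9 at 1.60 in thymus and -2.88 in liver.

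Of the M genes, 9 were listed at 0 in every library: H2-M1, H2-M9, H2-M11 and H2-M10.1 to H2-M10.6, a set known from sensory neurons of the vomeronasal organ. H2-M5 had a value in the injected B6 liver alone (1.15 FPKM). H2-M3, which presents formylated peptides of bacteria and mitochondria, was at 4.61 to 9.01 FPKM in thymus and 1.56 to 4.25 FPKM in liver. H2-M2 was at 4.59 and 6.04 FPKM in B6 and 7.21 and 9.19 FPKM in MSM thymus and listed at 0 in liver. Neither was called between strains in thymus (adjusted p = 0.792 for H2-M3 and 0.441 for H2-M2). H2-Ke2, a prefoldin subunit gene, and H2-Ke6, a hydroxysteroid dehydrogenase gene, carry the H2- prefix for their place beside H2-K1 and do not present antigen. H2-Ke2 ranged from 13.0 to 32.3 FPKM over the 8 libraries and H2-Ke6 from 5.84 to 56.9 FPKM, and neither was called between strains.

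Group sums are less exposed to the split of fragments among copies of 1 group, though stretches are also shared between groups, as H2-D1 shares 7.40% with H2-Q1. A sum does not recover MSM fragments that failed to align to the B6 reference, and how many failed was not tested. Classical class I summed to 267 and 288 FPKM in B6 thymus against 112 and 71.4 FPKM in MSM thymus, and to 1059 and 944 FPKM in B6 liver against 122 and 95.9 FPKM in MSM liver. B6 was thus 2.39-fold and 4.03-fold above MSM in thymus and 8.65-fold and 9.84-fold in liver, where H2-D1 alone was 2.33-fold and 2.63-fold above. Class II summed to 430.0 and 465 FPKM in B6 and 209.8 and 205 FPKM in MSM thymus, and to 97.1 and 55.3 FPKM in B6 and 27.9 and 24.4 FPKM in MSM liver. The T group ran the other way in thymus (85.2 and 94.3 FPKM in B6, 144 and 145 FPKM in MSM) and with the others in liver (231 and 236 FPKM in B6, 61.3 and 46.3 FPKM in MSM). The Q group in liver differed little (958 and 931 FPKM in B6, 929 and 878 FPKM in MSM), with H2-Q10 as most of it. Without H2-Q10 it summed to 76.1 and 56.05 FPKM in B6 and 18.2 and 10.4 FPKM in MSM liver. The classical class I, Q and T genes together were 2.02-fold and 2.07-fold higher in B6 liver, and 6.77-fold and 8.10-fold without H2-Q10. With 2 mice a strain, these sums were not tested.

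**Figure D3:**
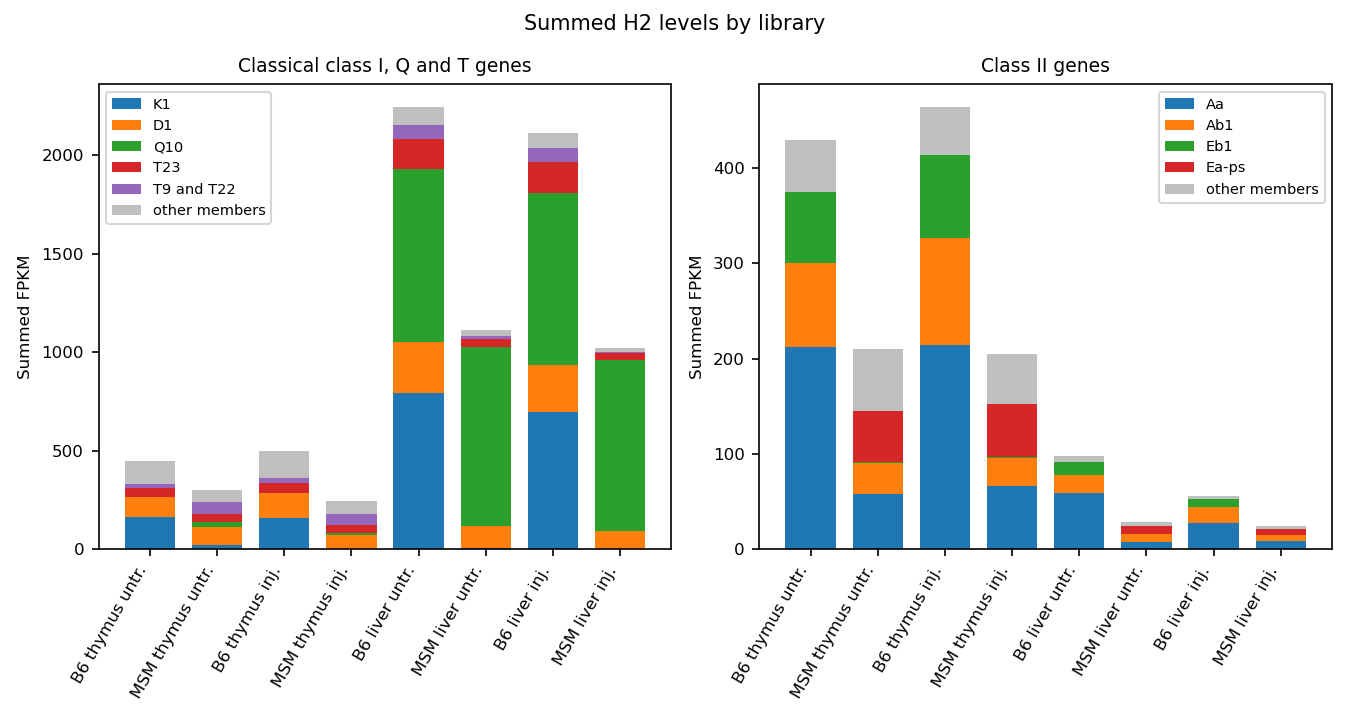
Summed FPKM per library (untr., untreated; inj., injected with MegaFasL) of the classical class I, Q and T genes (left) and of the class II genes (right), with coloured segments for single members and grey for the rest. H2-K1 fills 31.4% to 36.3% of the left bars in B6 and H2-Q10 81.8% and 85.0% of them in MSM liver, while H2-Ea-ps appears in the 4 MSM bars at right.

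The tissue comparison asks how H2 expression differs between organs of the same mouse. Of 32 members tested with mouse as a block, 4 were higher in liver and 15 lower, where 28.6% of 12880 genes were called higher and 32.1% lower. H2-Q10 was the member with the largest liver excess (7.31 ± 0.68, adjusted p = 0.000302), and H2-Ke6 (2.22 ± 0.20, adjusted p = 0.000259), H2-K2 (1.48 ± 0.29, adjusted p = 0.00563) and H2-D1 (0.73 ± 0.24, adjusted p = 0.0364) were also higher. Of the 10 class II genes, 9 were lower in liver, from H2-DMa (-3.40 ± 0.42, adjusted p = 0.000923) to H2-Ob (-1.28 ± 0.23, adjusted p = 0.00386). H2-Ea-ps was not called (-1.34 ± 0.58, adjusted p = 0.0855), being listed at 0 in both tissues of B6. H2-T10, H2-T22, H2-T24, H2-M2, H2-M3 and H2-Q6 were the other members lower in liver. H2-K1 was not called (0.49 ± 0.77, limma adjusted p = 0.6001), since it was higher in liver than thymus in both B6 mice and not in the MSM mice. It was lower in liver in the untreated MSM mouse. In the injected MSM mouse, about 2.94 thymus and 0.98 liver fragments were too few to order the tissues. Rescaling every library to the same FPKM sum shifted the all-gene median difference of -0.13 to -1.05. Then 2 members were higher and 18 lower in liver, and H2-D1 turned to -0.34 (adjusted p = 0.269).

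The injection comparison has no replicate, and treatment coincides with the separately normalized table, so changes are given as values with no test. In thymus, 25 of 32 members changed less than 2-fold in both strains. H2-Q8 was the only member at least 2-fold higher in both (1.44 in B6 and 1.53 in MSM, on the centred log2 scale), and 0 were lower in both, where 0.267% of 11625 genes were higher and 0.422% lower. H2-Q7, a near copy, changed by -1.77 in B6 thymus, and the sum of H2-Q6 to H2-Q9 was 29.1 and 35.3 FPKM there. H2-K1 in MSM thymus changed by -3.67 and in B6 thymus by -0.10. In liver, 16 of 25 members changed less than 2-fold in both strains, H2-T22 was at least 2-fold higher in both (4.59 and 2.74) and H2-T10 at least 2-fold lower in both (-1.14 and -1.46), where 1.63% of 10950 genes were higher and 1.27% lower. The change of H2-T22 was from a listed 0, and its locus partner H2-T9 changed by -0.59 and -2.07. Their sum was 69.9 and 71.9 FPKM in B6 and 15.3 and 8.81 FPKM in MSM liver. The median change over members was 0.01 and -0.24 in thymus and -0.20 and -0.34 in liver for B6 and MSM.

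Genes that load and control MHC molecules gave 0 calls between strains, where 0.379% to 0.957% of all genes tested were called in a direction. At those shares lists this short would hold few calls. Of 15 genes of class I assembly and peptide supply, 0 were called in thymus and 0 in liver by limma, with 2 and 3 at an unadjusted p under 0.05 and medians of 0.05 and -0.27. In thymus 7 of the 15 lay below 0, and in liver 12. B2m, the class I light chain, named for its role after its values were seen, was at 371 to 484 FPKM in thymus and 1521 to 2251 FPKM in liver, with 431 and 392 FPKM in B6 and 484 and 371 FPKM in MSM thymus. Tap1, 1 of the peptide transporter chains, was at 21.1 and 26.2 FPKM in B6 and 14.8 and 16.0 FPKM in MSM thymus, and at 11.3 and 8.29 FPKM in B6 and 3.99 and 2.08 FPKM in MSM liver. Nlrc5, a transactivator of class I genes, was at 6.84 and 7.78 FPKM in B6 and 2.94 and 2.47 FPKM in MSM thymus. Neither Tap1 nor Nlrc5 overlapped between strains in thymus or liver, and neither was called (adjusted p of 0.129 to 0.372). The other largest differences of the list were 0.42 for Psme2 and -0.44 for Psmb9 in thymus, and -0.93 for Psmb8 and -0.89 for Psmb10 in liver, all genes of the proteasome that cuts peptides for class I.

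Of 9 genes of class II assembly and control, 0 were called in thymus and 0 of 8 tested in liver by limma, with 1 and 2 at an unadjusted p under 0.05 and a median of -0.33 in each tissue. All 9 lay below 0 in thymus, and 6 of the 8 in liver. Cd74, the invariant chain, was at 307 and 448 FPKM in B6 and 262 and 280.4 FPKM in MSM thymus. Ciita, the class II transactivator, was at 5.18 and 7.53 FPKM in B6 and 4.33 and 3.62 FPKM in MSM thymus, and at most 0.520 FPKM in liver. Ctss, the protease cathepsin S that degrades the invariant chain, had the largest difference of the list in both tissues (-0.70 ± 0.22 in thymus, adjusted p = 0.276, and -1.50 ± 0.24 in liver, adjusted p = 0.0744). Among 18 interferon response genes, 1 was lower in MSM thymus, Oasl2 (-1.97 ± 0.29, adjusted p = 0.0447), and 2 in MSM liver, Ifit3 (-3.72 ± 0.42, adjusted p = 0.0371) and Usp18 (-3.00 ± 0.39, adjusted p = 0.0463), with medians of -0.68 and -1.47. The shares called lower over all genes were 0.594% and 0.957%. Of the 18, 17 lay below 0 in thymus and 16 in liver, and 8 and 14 had an unadjusted p under 0.05. Isg15, an interferon-induced ubiquitin-like gene, had differences of -3.11 in thymus and -3.01 in liver that were not called (adjusted p = 0.0693 and 0.0542).

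Genes between the outermost H2 genes that are not H2 genes had a median difference near 0, with single genes on both sides. Of 153 listed, 84 were tested in thymus with a median of 0.07, 48 above 0 and 36 below. Of these 1 was called higher and 1 lower, and 14 had an unadjusted p under 0.05 by limma. In liver 71 were tested with a median of 0.14, 43 above 0 and 28 below. There 0 were called and 12 had an unadjusted p under 0.05. Ubd, a ubiquitin-like gene induced by interferon gamma (chr17, first base 37193892), was at 47.8 and 47.2 FPKM in B6 and 0.964 and 1.31 FPKM in MSM thymus (-4.51 ± 0.24, adjusted p = 0.00082). The uncharacterized A930015D03Rik, which shares the locus of H2-T23 and H2-T24, was at 0.486 and 2.98 FPKM in B6 and 19.0 and 20.97 FPKM in MSM thymus (3.11 ± 0.36, adjusted p = 0.0205). The largest differences among neighbours in liver were 2.31 for Ng23 and -1.89 for Aif1, a macrophage gene (adjusted p = 0.129 and 0.241). Of the 28 tested genes within 50 kb of a member, 1 was higher and 0 lower in MSM thymus, with 6 at an unadjusted p under 0.05.

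**Figure D4:**
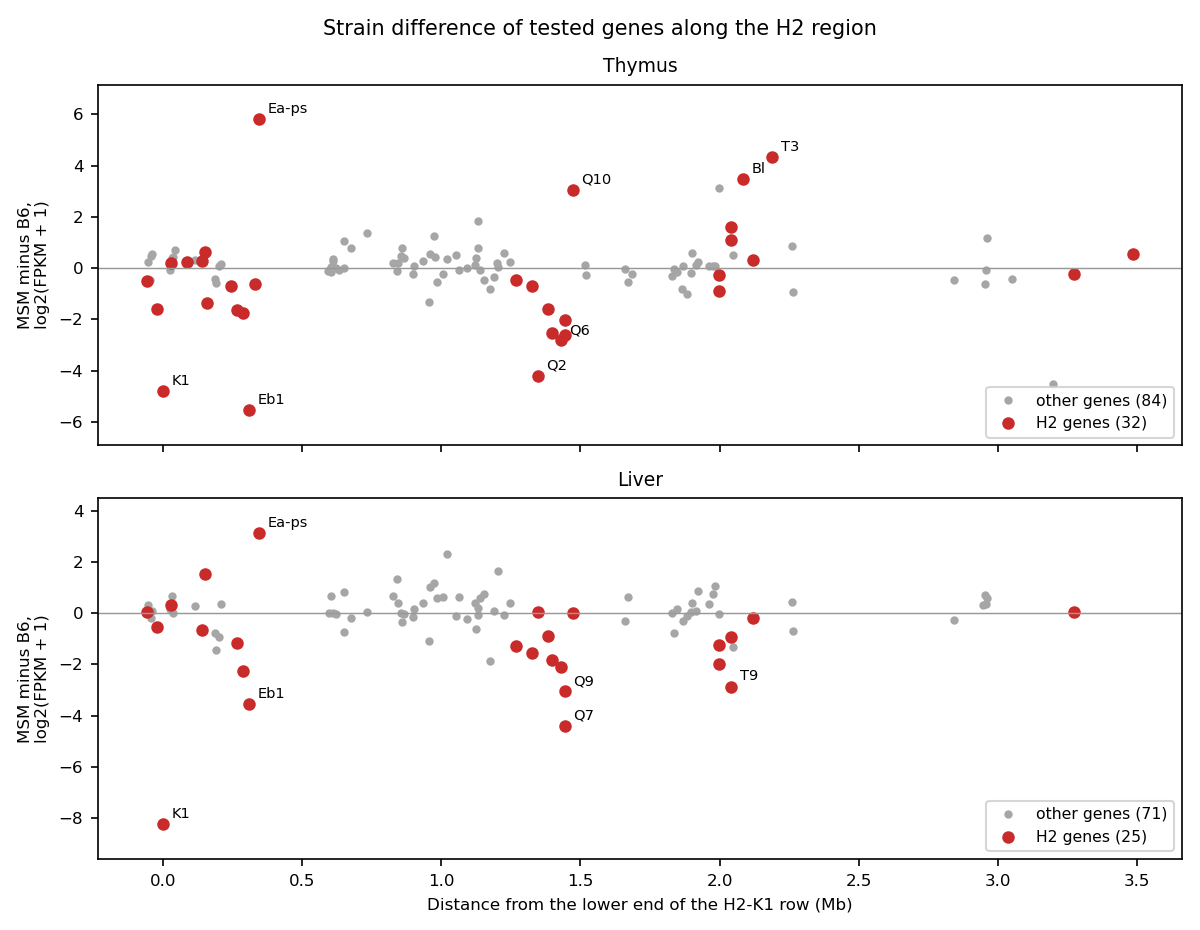
Strain difference (MSM minus B6) of log2(FPKM + 1) in thymus (top) and liver (bottom) for H2 genes (red) and the other tested genes between them (grey), by distance in Mb from the lower end of the H2-K1 row. H2 genes run from -5.56 to 5.80 in thymus and from -8.24 to 3.12 in liver, with medians of -0.56 and -1.17. The grey genes run from -4.51 to 3.11 in thymus and from -1.89 to 2.31 in liver, with medians of 0.07 and 0.14.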

How the data were processed

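RNA levels were measured in 8 libraries. TopHat, mm10 and Cuffdiff 2.2.1 are named in the submitters' processing notes, and the authors deposited gene FPKM in 1 table per treatment. No source used here names the gene annotation. Fragments per FPKM were estimated by finding, for each library, the scale that made values of single-transcript genes whole within 0.1. The whole share was 68.1% to 72.8%, where chance gives 20%, and such depths speak to counting error alone.

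The log2(FPKM + 1) scale used for all comparisons understates changes of low genes. Genes averaging 1 FPKM or more were tested with limma 3.58.1 (R 4.3.3, mean trend, two-sided, Benjamini-Hochberg over all genes): strain within each tissue with treatment as a term (1 residual degree of freedom), tissue with mouse as a block, and the strain difference between tissues on each mouse's liver minus thymus value. Injection changes were centred by the median ratio, with a 2-fold threshold. Named genes were all H2 rows and, from the other lists, genes that were called or among the 4 largest strain differences. The members and lists were chosen with earlier results of these data known. Code was tested on simulated data. Alternatives changed the added value, filter, scaling, moderation, model terms and libraries used. Promoter motifs were not analysed here.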

Additional observations from a re-analysis of the deposited data

Results flagged for a closer look

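H2-T9 differed in its strain difference between the tissues: the fitted MSM minus B6 difference in liver less that in thymus was -4.47 by a test of that difference (limma adjusted p = 0.0315), with MSM above B6 in both thymus pairs and below in both liver pairs. It shares its locus with H2-T22, and the sum of both gave -3.85 (adjusted p = 0.0334).

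H2-DMa in liver changed in opposite directions after injection, by -1.12 in B6 and by 1.65 in MSM on the centred log2 scale. It was at 3.16 FPKM in untreated and 0.96 FPKM in injected B6 liver, and listed at 0 in untreated and at 2.198 FPKM in injected MSM liver, about 7.52, 2.51, 0 and 5.00 fragments. The difference was not tested.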

How the results depend on the processing

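Each result under each other setting was compared with its main value. Of these comparisons, 519 were kept, with the same direction and threshold side for a gene or a nearby count or sum. Another 119 lost a call, 17 gained one, 43 moved in count or value and 1 reversed. H2-D1 in liver minus thymus reversed to -0.34 after rescaling to a common sum. Rescaling gave 2 members higher and 3 lower in MSM thymus, 9 lower in MSM liver, 2 higher in liver than thymus, 0 whose strain difference differed between tissues and 2 lower in thymus after injection, and summed levels in liver (log2, MSM over B6) of -0.24 for Q and -3.38 for classical class I. Members lower in MSM thymus were 2 with no filter, 2 with median-ratio centring (3 higher) and 2 without the mean trend. Without the trend, 0 were higher and 2 lower in MSM liver. Calls over all genes moved too. Genes lower in MSM thymus were 69 in the main fit, 27 rescaled, 36 with no filter, 31 centred and 26 without the trend. Genes lower in MSM liver were 105 in the main fit, 234 rescaled and 21 without the trend. For the difference between tissues, 14 genes were positive and 33 negative in the main fit, and 53 and 79 with 5 added. Members higher in MSM liver were 0 with 0.1 or 5 added or a filter of 5 FPKM. The count whose strain difference differed between tissues was 5 with 5 added, and 0 with 0.1 added, no filter, a filter of 5 FPKM, centring or no trend. After injection, 5 added gave 0 higher in thymus and 0 lower in liver, 0.1 added gave 2 lower in thymus, and a filter of 5 FPKM gave 0 lower in liver. Within 50 kb of a member 0 other genes were lower in MSM thymus. The cause of these shifts was not tested. Leaving out 1 library gave 1 to 3 members higher and 0 to 6 lower in MSM thymus and 0 in both directions in MSM liver, and leaving out 1 mouse gave 0 to 1 for the difference between tissues. No paired analysis by replicate number was possible because each group holds 1 library. Low liver depth limits members under about 1 FPKM to 1 or 2 fragments per kb.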

Other observations

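In the untreated MSM thymus, the ratio of MSM to B6 varied widely among antigen-presenting members. H2-K1 stood at 0.117 times its level in the untreated B6 thymus, H2-Aa at 0.272 times, H2-D1 at 0.915 times and H2-Eb1 at 0.0195 times. In the injected pair the ratio was 0.308 for H2-Aa and 0.554 for H2-D1, while H2-K1 and H2-Eb1 in the MSM mouse rested on about 2.94 and 1.0 fragments. H2-K1 in the untreated MSM thymus (19.1 FPKM) also lay above the same mouse's liver (3.20 FPKM).

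The authors' tables give a lower and an upper confidence bound for each FPKM value. For all 211 of the 336 member values that were above 0, the lower bound was 0. With every lower bound at 0, the bounds of B6 and MSM had to overlap in all 168 pairs of 1 member, tissue and table. Such overlap therefore says nothing about a single member, H2-K1 in liver included. Bounds of genes other than members were not compared.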
